A study of Homo sapiens with 6 samples.

Results

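HCC38 is an established cell line from a human breast ductal carcinoma, described by its labels as triple negative and basal-like. The series silenced CIP2A, an inhibitor of the phosphatase PP2A, in these cells. The description below covers the 3 control libraries of its 6 libraries and the genes they expressed. Poly(A) RNA was sequenced from cells given no siRNA (mock) and from cells given either of 2 non-targeting siRNAs, SCR#2 and SCR#3, with the lipid reagent Oligofectamine. For the mock, the sample label names the transfection reagent alone, while the series text speaks of no transfection, so whether it saw the reagent is not settled here. Dose and time after transfection were not among the labels. All controls shared the line, the RPMI medium with serum and the library kit. Each control type was 1 library, nothing states that the libraries came from separate cultures, and every SD below is the spread of these 3 libraries (n = 3). The counts of the CIP2A siRNA libraries were not used, and no comparison with them was made.

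Gene levels were expressed as CPM, the count of a gene per 1000000 counts of its library. A gene was taken as expressed when it reached at least 1 CPM in all 3 libraries. That rule selected 12541 of the 26485 genes listed, or 47.4%. Because longer transcripts give more reads at the same number of molecules, an order of genes by CPM is an order of reads, and ratios between genes were taken only per length, as RPKM (CPM per kilobase of the longest annotated transcript). Each list count below is to be set beside the 47.4% of all genes and the 61.9% of protein-coding genes that were expressed. The lists were drawn up from well-known genes, so a share above these also describes that choice.

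As background, triple-negative breast cancers lack the oestrogen and progesterone receptors and amplified HER2. Most fall into the basal-like class, in which tumour cells keep keratins of the outer, basal layer of the mammary duct, such as keratins 5, 14 and 17, while luminal tumours carry the keratins 8, 18 and 19 and the factors GATA3 and FOXA1. Some triple-negative lines have in addition lost E-cadherin and the claudins and carry mesenchymal genes such as vimentin.

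The libraries held 13995187 counts (mock), 17116379 (SCR#2) and 14743781 (SCR#3). Therefore 1 CPM stood for 14.0 to 17.1 counts, and the level equal to 3 counts, below which 0 counts say nothing, lay at 0.175 to 0.214 CPM. Every pair of libraries differed by more than counting noise, with a chi-square per degree of freedom of 3.22 to 11.4 over genes, so all 3 were kept as separate libraries. This does not show that they came from separate cultures. Mock stood somewhat apart from both siRNA controls: 48 genes were at least 1.5-fold higher in mock than in each of them, and these had GC-rich transcripts. Without mock 12655 genes met the rule for expression, and every list count stayed within 1.5 times. Some genes that all cells use and that have near-identical copies elsewhere in the genome were listed at very low values. H3F3A, a gene for histone H3.3, had 0 counts in all 3 libraries while H3F3B, which encodes the same protein, had a mean of 457 CPM. The ribosomal protein genes RPS27 and RPL7 had 0.205 and 0.918 CPM. These genes were picked after their values were seen. No source used here states how reads that fit several places were handled, so a low value of a gene with close copies is uncertain. That holds for KRT14, KRT17, KRT19 and the KRT6 genes, whose values below carry this limit.

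The expressed genes spanned more than 3 orders of magnitude (log10 scale). Their median was 34.9 CPM, and the 10th and 90th percentiles were 3.61 and 177 CPM. Between 1 and 10 CPM lay 2864 expressed genes with 1.32% of all counts, between 10 and 100 CPM 7067 genes with 29.5%, and between 100 and 1000 CPM 2547 genes with 57.3%. The 63 genes at 1000 CPM or more took 11.8% of the counts. The 10 highest genes held 4.22% of the counts in mock, 3.89% in SCR#2 and 4.05% in SCR#3, so no library was dominated by a few transcripts. Of the genes not expressed, 8329 had 0 counts in all 3 libraries and 5615 had at least 1 count. Among protein-coding genes 11768 of 19013 (61.9%) were expressed, with a median of 38.7 CPM. Among long non-coding RNA genes 491 of 3429 (14.3%) were expressed, with a median of 4.29 CPM. Next to the threshold, AARD, BRINP3 and C14orf37 had a lowest library of 1.00 CPM and were kept, and BTC, CSPG5 and CTNNA2 had a lowest library of 0.993 CPM and were not.

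**Figure D1:**
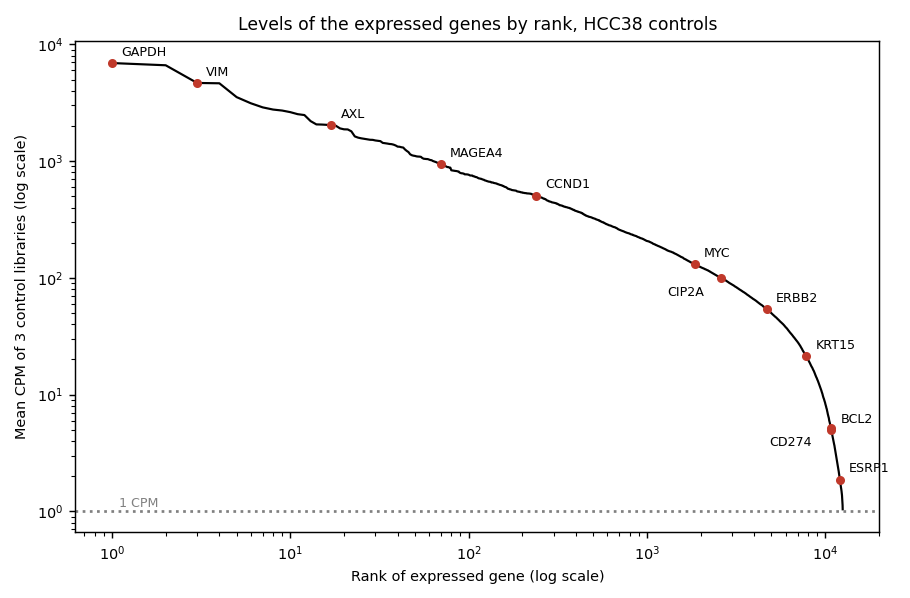
Mean CPM over the 3 controls (vertical axis, log scale) against the rank of each of the 12541 expressed genes (horizontal axis, log scale); red points mark named genes and the dotted line is 1 CPM. GAPDH is first at 6920 CPM, AXL is 17th at 2028 CPM and CIP2A lies at 99.9 CPM.

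By CPM, the highest genes were mainly of glycolysis, the cytoskeleton, chaperones and translation. GAPDH, the glycolytic dehydrogenase on chromosome 12, had 7435 CPM in mock, 6766 in SCR#2 and 6559 in SCR#3. SCD, the desaturase that makes monounsaturated fatty acids, followed with 5883, 6388 and 7596 CPM. The order of the 3 libraries was thus opposite for these 2 genes. VIM, the mesenchymal intermediate filament vimentin (GRCh38, chromosome 10, 17228241 to 17237593), had 4586, 4632 and 4802 CPM. HSP90AA1 (4642 CPM on average) and HSP90AB1 (2481 CPM) encode the cytosolic HSP90 chaperones, and HSPA8 (2525 CPM) the constitutive HSC70. ENO1, ACTG1, EEF2, ACTB and PKM lay between 2628 and 3534 CPM. Among the 20 highest genes by CPM there were also HMGA1 and HMGA2, non-histone chromatin proteins that are abundant in embryonic and malignant cells, at 2766 ± 225 and 2063 ± 101 CPM (SD, n = 3). GNB2L1 (the ribosome scaffold now called RACK1), ACTN4, PABPC1, FLNA and RPS6 lay between 1873 and 2201 CPM. The remaining 2 of the 20 were cell surface proteins, the laminin-binding integrin chain ITGA3 at 2057 ± 56.5 CPM and the receptor tyrosine kinase AXL at 2028 ± 120 CPM.

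Per length the order changed in favour of short transcripts. With the longest transcript as the length, GAPDH stayed first at 3691 ± 244 RPKM (SD, n = 3), and TMSB10, which encodes the actin-sequestering thymosin beta 10, came next at 3283 ± 125 RPKM. VIM followed at 2189 ± 53.3 RPKM. Of the 15 highest genes per length, 5 encoded cytosolic ribosomal proteins (RPS16, RPS6, RPS18, RPL8 and RPS12, at 1221 to 1732 RPKM). SCD ranked 14 (1235 RPKM) and HMGA2, whose longest transcript has 8094 bases, ranked 152 (255 RPKM). This order depended on the length chosen: with the median length of the annotated transcripts, ENO1 came first (5547 RPKM) before GAPDH (5410 RPKM), and 9 of the 15 genes stayed among the 15 highest.

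The letters before the start of a gene were set beside its level, because CpG-rich promoters are a known feature of broadly used genes. RefSeq promoters (GRCh38.p14) were matched for 17699 genes, among them 10168 of the expressed genes (81.1%), and the 250 bases before the first listed start were read. A promoter was called CpG-rich when its CpG count was at least 0.6 of that predicted from its C and G content and its GC content was at least 50%. The 150 bases before the start are printed for 4 genes that show the range, with each CG pair in capitals. They are GAPDH (chr12:6535114-6535263, plus strand), the highest gene; CIP2A (chr3:108589439-108589588, minus strand), the gene the series silenced; AXL (chr19:41219073-41219222, plus strand), a high gene with few CG pairs; and KRT5 (chr12:52520395-52520544, minus strand), the basal keratin that was nearly absent. All read 5′ to 3′ on the strand of the gene and end at the base before the start listed for it. For GAPDH that start lies inside the gene, whose coordinates begin at base 6534517, so its letters precede an internal start.
GAPDH: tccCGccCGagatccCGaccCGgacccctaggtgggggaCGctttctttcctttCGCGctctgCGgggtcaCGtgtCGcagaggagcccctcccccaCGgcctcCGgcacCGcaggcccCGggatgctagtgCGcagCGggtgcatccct
CIP2A: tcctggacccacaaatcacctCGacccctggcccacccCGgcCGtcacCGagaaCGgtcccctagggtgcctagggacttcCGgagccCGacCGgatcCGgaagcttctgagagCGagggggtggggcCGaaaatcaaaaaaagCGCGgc
AXL: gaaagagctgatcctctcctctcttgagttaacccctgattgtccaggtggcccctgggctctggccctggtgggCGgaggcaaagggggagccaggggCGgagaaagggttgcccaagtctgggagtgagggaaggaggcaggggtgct
KRT5: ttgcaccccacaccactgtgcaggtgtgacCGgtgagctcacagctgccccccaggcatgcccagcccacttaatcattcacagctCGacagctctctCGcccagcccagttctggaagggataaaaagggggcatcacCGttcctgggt
GAPDH and CIP2A had 16 and 13 CG pairs in these bases and AXL and KRT5 had 2 and 4. Over the 250 bases the ratio of CpG to its prediction was 0.718 for GAPDH, 0.906 for CIP2A, 0.155 for AXL and 0.309 for KRT5. AXL was therefore among the most abundant transcripts with a CpG-poor sequence at this start. The table lists 2 starts for AXL, and only the first is shown.

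Across genes, CpG-rich promoters were more frequent at higher levels up to the class of 100 to 1000 CPM. They made up 18.6% of genes with 0 counts (95% Wilson interval 17.4 to 19.8%, 4075 genes) and 40.7% of those with a count but not expressed. The share was 67.3% at 1 to 10 CPM, 81.4% at 10 to 100 CPM and 85.0% at 100 to 1000 CPM (83.4 to 86.4%). At 1000 CPM or more it was 79.2%, with an interval of 66.5 to 88.0% for only 53 genes that spans the class before it. The TATA box letters TATAAA, searched on the gene's strand, were found before 13.6% of the genes with 0 counts and 3.01% of all expressed genes, against 6.48% of all promoters. Of the position bins of 25 bases, that from 50 to 26 bases before the start held 592 genes with these letters and the other bins 42 to 123 each. The GC box letters GGGCGG (both strands) stood in 22.9% of promoters of genes with 0 counts, 68.4% of expressed genes and 53.3% of all. The ETS-type letters CCGGAAGT (both strands) stood in 0.761% and 7.45% of the same classes, against 4.84% of all. The AP-1 type letters TGANTCA (both strands) went the other way, 8.74% against 3.55%, with 5.46% of all. The CCAAT letters (both strands) were found at nearly even shares, 33.4% and 35.5%. GGGCGG and CCGGAAGT each contain a CG pair, and genes are not independent replicates, so these shares are a description.

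**Figure D2:**
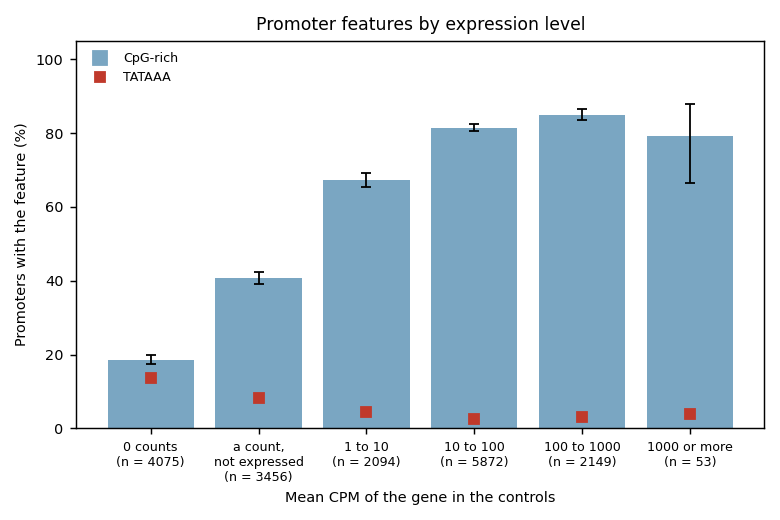
Share of RefSeq promoters (vertical axis, percent) that were CpG-rich (bars, with 95% Wilson intervals) or held TATAAA (red squares) by class of mean CPM (horizontal axis, n genes below each class). CpG-rich promoters go from 18.6% at 0 counts to 85.0% at 100 to 1000 CPM, and TATAAA from 13.6% to 3.16%.

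The receptor genes that define triple-negative disease were at or near 0, except ERBB2. ESR1, the oestrogen receptor alpha gene, had 0.214 CPM in mock, 0.351 in SCR#2 and 0.0678 in SCR#3, which is 1 to 6 counts per library. PGR had 0.117 CPM in SCR#2 and 0 elsewhere. ESR2 had a mean of 0.384 CPM and GRB7, which lies next to ERBB2 and is co-amplified with it, of 0.109 CPM. ERBB2 itself had 59.9, 48.3 and 54.2 CPM, a mean of 54.2 ± 5.82 (SD, n = 3). Only ERBB2 of the 6 genes in the receptor list was expressed (16.7%, against 47.4% of all genes and 61.9% of protein-coding genes).

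Several genes that define the basal-like class were at or near 0, which goes against the label. Counts alone cannot check the identity of the line, and the values of KRT14, KRT17 and the KRT6 genes are uncertain because of their close copies. KRT5 had a single library with any count (0.0678 CPM in SCR#3), KRT17 likewise (0.0584 CPM in SCR#2), and KRT14, KRT6A, KRT6B and KRT6C had 0 counts in all 3. KRT16 had a mean of 0.129 CPM. KRT15, a keratin of basal cells and their progenitors, was the exception in the basal set with 19.9, 22.5 and 21.8 CPM, and 1 of 8 basal keratins was expressed (12.5%, against 61.9% of protein-coding genes). TP63, the master factor of basal epithelium, had a mean of 0.315 CPM and SOX10 had 0 counts. Of the 9 markers used for basal epithelium only COL17A1 (23.0 CPM), a hemidesmosome collagen, and the transcription factor FOXC1 (10.0 CPM) were expressed. Their summed level was 32.5 to 36.2 CPM.

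Some other genes that are counted with the basal class had many reads. ITGA6, the laminin-binding integrin alpha 6, had 688, 940 and 722 CPM, highest in SCR#2. DST, a linker of hemidesmosomes, had 482 ± 38.4 CPM and CAV1, the coat protein of caveolae, 285 ± 36.7 CPM (SD, n = 3). The chain LAMB3 of laminin-332, the laminin of the basal lamina, had 144 CPM (33.5 RPKM), while its chain LAMA3 had 15.7 CPM (1.47 RPKM). The transcription factor SOX9 had 112 CPM. In the whole basal list 15 of 27 genes were expressed (55.6%), near the 61.9% of all protein-coding genes.

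Luminal markers were present in part. KRT18, the simple-epithelium keratin, had 555, 442 and 512 CPM, and its partner KRT8 had 375, 276 and 308 CPM. Both were highest in mock and lowest in SCR#2. Per length KRT18 stood at 297 ± 33.8 RPKM and KRT8 at 131 ± 20.8 RPKM, and the ratio of KRT18 to KRT8 was 2.27 ± 0.136. KRT80 had 66.7 CPM and KRT7 6.29 CPM. KRT19, a keratin of most luminal cells, had 0.397 CPM, 5 to 7 counts per library, a value that is uncertain because of its close copies. FOXA1, a luminal pioneer factor, had 1.46 CPM and GATA3 0.829 CPM, while SPDEF and AGR2 had under 0.05 CPM and TFF1 had 0 counts. XBP1, a factor of the secretory pathway, had 45.2 ± 1.08 CPM. In all, 4 of 12 luminal markers were expressed, and 10 of 23 genes of the wider luminal list, among them the zinc transporter SLC39A6 at 98.1 CPM. That share of 43.5% is near the 47.4% of all genes but below the 61.9% of protein-coding genes.

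Of the epithelial marker set most members were near the floor, while the mesenchymal marker set was expressed in full, at levels that differed widely. CDH1, which encodes E-cadherin, had 0.143 CPM in mock, 0.351 in SCR#2 and 1.22 in SCR#3, from 2, 6 and 18 counts, so only SCR#3 reached 1 CPM. EPCAM had a mean of 0.606 CPM, CLDN3, CLDN4 and CLDN7 had 0.298 to 0.845 CPM and the epithelial transcription factor GRHL2 had 0 counts. Of 7 epithelial markers only the splicing factor ESRP1 was expressed, at 1.87 CPM. Not all junction genes were low: TJP1, the tight junction scaffold ZO-1, had 244 ± 7.26 CPM, and DSP (desmoplakin), CLDN1, F11R and LSR had 35.5 to 50.6 CPM. In the list of epithelial identity and junction genes 13 of 28 were expressed. That share of 46.4% is near the 47.4% of all genes but below the 61.9% of protein-coding genes. All 8 mesenchymal markers were expressed, with a summed level of 4933 to 5198 CPM that was mostly VIM. FN1 (fibronectin) had 118 CPM, CDH2 (N-cadherin) 80.9 CPM, and the repressors of E-cadherin ZEB2 and ZEB1 had 67.0 and 62.7 CPM. SPARC had 37.4 CPM, SNAI2 7.59 CPM and TWIST1 6.51 CPM. SNAI1, a further repressor outside those 8, had 0.653 CPM. VIM exceeded KRT18 per length by 7.45 ± 0.885 times (6.56, 8.33 and 7.45 in the 3 libraries; 11.1 with the median transcript length).

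**Figure D3:**
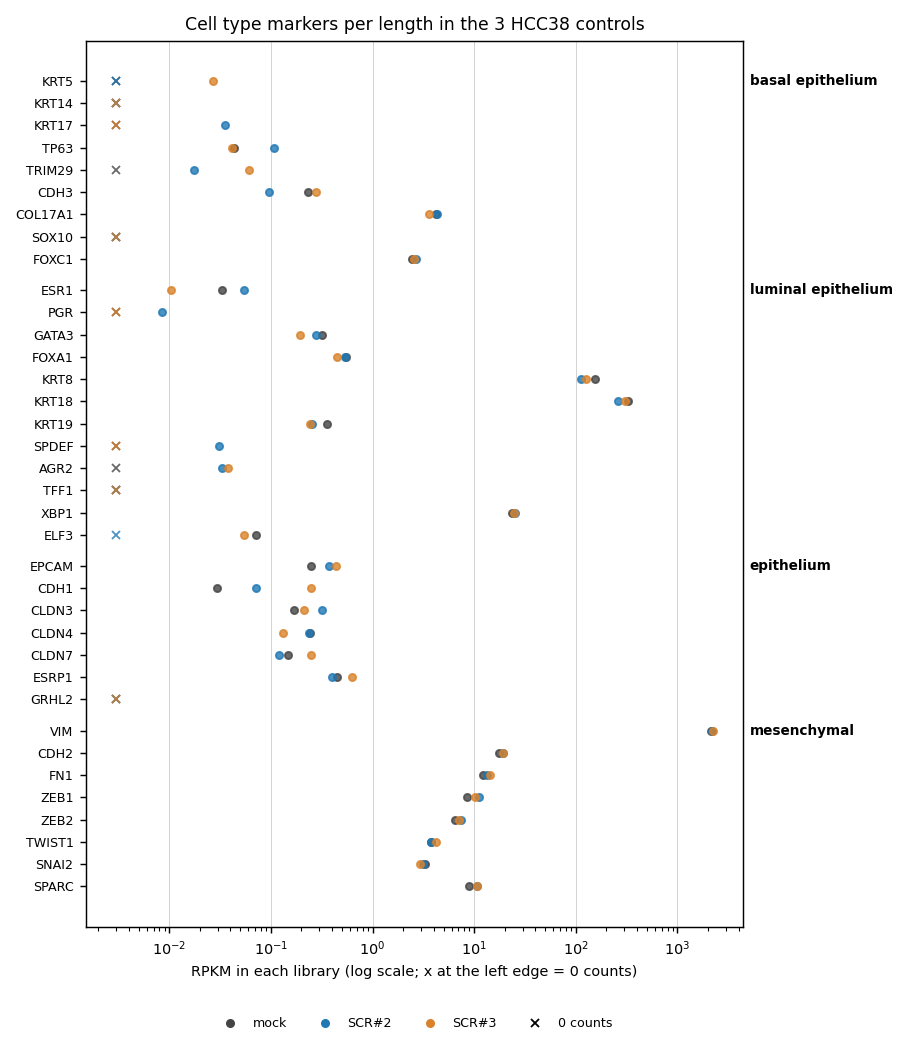
RPKM of each marker gene (rows, by cell type) in mock, SCR#2 and SCR#3 (points; horizontal axis, log scale; crosses at the left are 0 counts). All 8 mesenchymal markers lie above 2 RPKM in every library, whereas SOX10, TFF1 and GRHL2, and the uncertain KRT14, have 0 counts in all 3.

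Markers of other cell types were mostly close to 0. The fibroblast set had no expressed member of 6 and a summed level of 1.56 to 3.15 CPM, with LUM at 0 counts. The adipocyte and hepatocyte sets had no expressed member, with summed levels of at most 0.117 and 0.0715 CPM. PTPRC, the pan-leukocyte gene CD45, had 0 counts, and of the leukocyte set only ITGAM was expressed (3.30 CPM). CDH5, a defining endothelial cadherin, had 0 counts, while KDR and PECAM1 had 4.58 and 4.07 CPM. MLANA and TYR of melanocytes had 0 counts and PMEL had 2.69 CPM. Of the neuronal set SYT1 (27.6 CPM) and SNAP25 (14.0 CPM), both of the vesicle release machinery, were expressed, whereas RBFOX3 had 0 counts and STMN2 0.108 CPM. In the myoepithelial set the surface peptidase MME (CD10) had 370, 468 and 445 CPM, and MYLK and ACTA2 had 20.6 and 6.51 CPM, while CNN1 had 0.0659 CPM. With bulk RNA, few cells with a high level and many with a low level cannot be told apart.

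Genes of the dividing cell were expressed without exception in the set examined. All 20 proliferation genes of the PAM50 breast cancer classifier were expressed, with a median of 196 CPM. Of all genes 47.4% were expressed, and of protein-coding genes 61.9%. MKI67, the Ki-67 antigen, had 669, 662 and 676 CPM, with an SD of 6.87 CPM. The contractile-ring protein ANLN had 505 ± 17.9 CPM, the mitotic cyclin CCNB1 417 ± 11.2 CPM and CENPF, a kinetochore protein, 334 ± 25.7 CPM (SD, n = 3). CDC20, the activator of the anaphase-promoting complex, had 323, 260 and 278 CPM, and the nucleotide synthesis genes RRM2 and TYMS had 272 and 265 CPM. EXO1 and ORC6 had the fewest reads of the 20, at 38.8 and 33.4 CPM. Of all 50 PAM50 genes 40 were expressed (80.0%, against 61.9% of protein-coding genes). The 10 that were not were CDH3, TMEM45B, ESR1, GRB7, MIA, MLPH, PGR, KRT5, KRT17 and KRT14, of which the last 2 are uncertain because of close copies.

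Receptor tyrosine kinases were led by AXL, the receptor for GAS6, at a level far above the others. AXL (chromosome 19, 41219223 to 41261766) had 2147, 2030 and 1907 CPM. Per length AXL stood at 428 ± 25.4 RPKM (SD, n = 3) and EPHA2, an ephrin receptor, came next at 62.7 RPKM. With the median transcript length AXL was again first (633 RPKM), but DDR1 came next (248 RPKM). DDR1, a collagen receptor, had 37.3 RPKM, the hepatocyte growth factor receptor MET 32.8, EPHB4 23.1 and FGFR1 22.5 RPKM. Of the TAM family to which AXL belongs, MERTK had 46.0 CPM and TYRO3 44.9 CPM, and AXL exceeded MERTK per length 36.9 ± 3.18 times. EGFR, often high in basal-like tumours, had 82.9, 81.6 and 74.5 CPM and 8.11 RPKM, so that AXL exceeded it per length 52.8 ± 1.09 times (26.6 times with the median transcript length). ERBB3 had 8.02 CPM and ERBB4 0.689 CPM. Of the 36 receptors 21 were expressed, and their share of 58.3% lies between those of all genes (47.4%) and protein-coding genes (61.9%). The receptor genes KIT and ALK had 0 counts.

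Among growth factor ligands 19 of 29 were expressed (65.5%), again near the protein-coding background of 61.9%. TGFB1, the ligand of the TGF-beta receptors, had 292, 213 and 237 CPM, highest in mock. FGF2, a ligand of FGFR1, had 53.5 ± 3.65 CPM, PDGFC 46.0 CPM, the EGFR ligand TGFA 44.3 CPM, VEGFA 43.7 CPM and WNT5B 37.1 CPM. The EGFR ligands AREG and EREG were not expressed (0.443 and 0.0690 CPM). HGF, the ligand of MET, and IGF1 had 0 counts in all 3 libraries.

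Integrins are pairs of an alpha and a beta chain, and 19 of 26 chains were expressed (73.1%, against 61.9% of protein-coding genes). ITGA3 had 2122, 2019 and 2031 CPM, 421 ± 11.6 RPKM. ITGB1, the beta chain that pairs with it, had 807, 1019 and 898 CPM (240 RPKM), and ITGA6 had 139 RPKM. With the median transcript length the order changed, and ITGB1 (1596 RPKM) lay above ITGA3 (916 RPKM). ITGB5, ITGA5 and ITGAV had 331, 273 and 151 CPM. ITGB1, ITGA6 and ITGA5 were each highest in SCR#2 and lowest in mock. ITGB4, the partner of ITGA6 in hemidesmosomes, had 64.2 CPM. The leukocyte chains ITGB2 and ITGAL had 0.156 and 0.0854 CPM. Of the laminins 10 of 12 chains were expressed (83.3%, against the same 61.9%). LAMC1 had 349, LAMB1 235, LAMB2 118, LAMA2 82.7 and LAMA5 71.2 CPM. Among mesenchymal and matrix genes 23 of 29 were expressed (79.3%, against 61.9%). CD44, the hyaluronan receptor, had 648 ± 28.6 CPM, LGALS1 (galectin-1) 568 CPM, the matrix protein TGFBI 536 CPM and the membrane protease MMP14 414 CPM. Of the collagen genes, COL1A1 was at 4.99 CPM, COL1A2 at 0.753 CPM and COL5A1 at 0.0885 CPM, while COL6A2 and COL6A1 had 170 and 127 CPM.

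**Figure D4:**
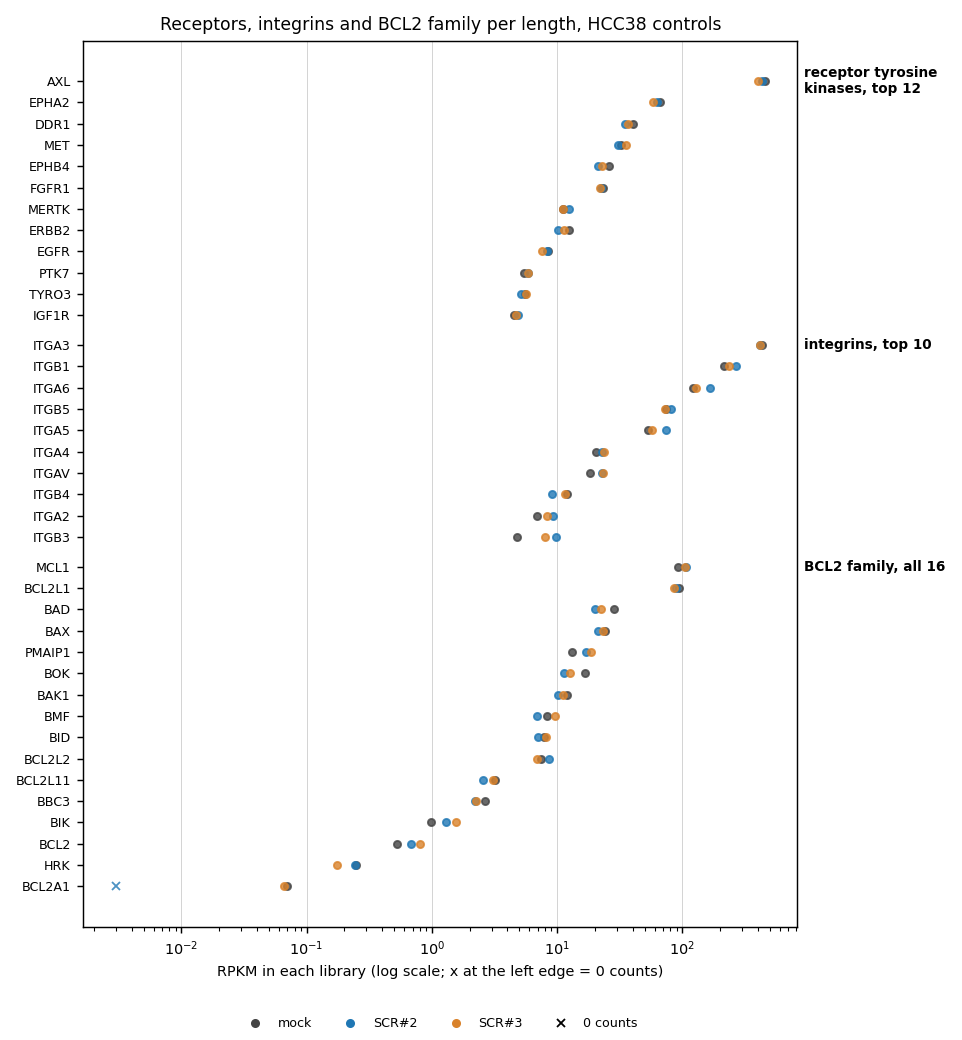
RPKM in mock, SCR#2 and SCR#3 (points; horizontal axis, log scale; a cross is 0 counts) of the 12 highest receptor tyrosine kinases, the 10 highest integrin chains and all 16 BCL2 family genes. AXL at 428 RPKM stands apart from EPHA2 at 62.7 RPKM, and BCL2 at 0.669 RPKM lies far below MCL1 at 101 RPKM.

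Most of the oncogenes and tumour suppressors listed were expressed, against 61.9% of protein-coding genes. CCND1, which encodes cyclin D1, had 500, 546 and 476 CPM, and its kinases CDK6 and CDK4 had 397 ± 28.3 and 283 ± 18.9 CPM. Per length CDK4 was the higher of the pair (136 against 34.2 RPKM), since the longest CDK6 transcript is much longer. AKT2 and AKT1 had 343 and 336 CPM and YAP1 309 CPM. MYC had 130 CPM and NRAS 237 CPM, while MYCN had 0 counts and MYCL and CCND2 had 0.281 and 1.87 CPM. Of the oncogenes 19 of 22 were expressed (86.4%). Of the tumour suppressors 23 of 24 were expressed (95.8%), and the exception was CDH1. KMT2D and ARID1A, subunits of chromatin regulators, had 266 and 223 CPM and NF1 126 CPM. RB1 had 99.8, 107 and 110 CPM. CDKN2A, which encodes p16 and p14ARF, had 95.2, 75.7 and 76.3 CPM. Its neighbours on chromosome 9, MTAP and CDKN2B, had 141 and 61.3 CPM. RNA levels say nothing of point mutations in these genes.

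All 26 genes of homologous recombination and the DNA damage checkpoint were expressed, against 61.9% of protein-coding genes, with a median of 64.3 CPM. TP53BP1, which steers breaks away from recombination, had 175 ± 10.5 CPM and PARP1 162 ± 12.1 CPM. FANCI had 128 CPM, the checkpoint kinase gene ATM 122 CPM and RAD50 114 CPM. BRCA1 had 65.0, 64.2 and 68.3 CPM and BRCA2 a mean of 31.8 CPM. RAD51D had the fewest reads of the list, at 8.79 CPM.

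CIP2A (listed under its older symbol KIAA1524; GRCh38, chromosome 3, 108549864 to 108589438) was the gene the series set out to silence, and it had 97.0 CPM in mock, 99.7 in SCR#2 and 103 in SCR#3. Its mean was 99.9 CPM, or 24.5 ± 0.728 RPKM (SD, n = 3), at rank 2613 of all genes by CPM. Of the 29 PP2A subunits, regulators and inhibitors 28 were expressed (96.6%, against 61.9% of protein-coding genes), with a median of 97.2 CPM. SET, another inhibitor of PP2A, had 535 ± 19.4 CPM and 184 RPKM. The catalytic subunits PPP2CA and PPP2CB had 315 and 99.7 CPM and the scaffolds PPP2R1A and PPP2R1B 217 and 81.3 CPM. Among regulatory subunits PPP2R5C had 278 CPM and PPP2R5D 171 CPM, and PPP2R2B at 0.0616 CPM was the member not expressed. ARPP19, an inhibitor of PP2A in mitosis, had 218 CPM.

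In the BCL2 family, which sets the threshold of mitochondrial cell death, 14 of 16 genes were expressed (87.5%, against 61.9% of protein-coding genes). The anti-apoptotic MCL1 had 365, 418 and 413 CPM (101 RPKM) and BCL2L1, which encodes BCL-XL, 247, 233 and 222 CPM (89.6 RPKM). With the median transcript length the order changed, and BCL2L1 (256 RPKM) lay above MCL1 (110 RPKM). BCL2 itself had 3.93, 5.08 and 5.97 CPM, or 0.669 RPKM, so MCL1 exceeded it per length 155 ± 22.5 times (110 times with the median transcript length). The effectors BAX and BAK1 had 22.7 and 11.1 RPKM. Of the BH3-only genes PMAIP1 (NOXA) had 31.6 CPM, BMF 38.8 CPM, BCL2L11 (BIM) 15.5 CPM and BBC3 (PUMA) 4.36 CPM. BCL2A1 was not expressed (0.0464 CPM).

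All 20 AP-1 and YAP pathway genes were expressed, against 61.9% of protein-coding genes. FOSL1, the AP-1 subunit FRA-1, had 506, 428 and 397 CPM, while the immediate early genes FOS and FOSB had 5.25 and 1.70 CPM. YAP1 and its paralog WWTR1 (TAZ) had 309 and 257 CPM, and their DNA-binding partners TEAD1 and TEAD4 had 169 and 54.6 CPM. The target genes CYR61 (now CCN1) and CTGF (now CCN2) had 293 and 171 CPM and AMOTL2 176 CPM.

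Glycolytic enzymes together held 1.90% of all counts, with 17 of 24 expressed (70.8%, against 61.9% of protein-coding genes). ENO1 had 4066, 3129 and 3406 CPM, ALDOA 1366, 913 and 1018, PGK1 1139, 870 and 924, and GPI 898, 631 and 732 CPM. Each of these 4 enzymes was highest in mock and lowest in SCR#2. LDHB, the heart-type lactate dehydrogenase chain, did not share that order (1274, 1325 and 1345 CPM). It exceeded the muscle-type chain LDHA per length 3.50 ± 0.433 times (3.01, 3.84 and 3.65). The hexokinase genes HK1 and HK2 had 109 and 47.5 CPM. Of the transporters, SLC16A3, which exports lactate, had 271, 169 and 193 CPM and the glucose carriers SLC2A3 and SLC2A1 had 120 and 93.6 CPM. The liver and muscle carriers SLC2A2 and SLC2A4 had 0 and 0.760 CPM.

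The antigen presentation genes of class I were all expressed, and those of class II were below the threshold with 1 exception. B2M, the invariant chain of class I, had 472, 556 and 550 CPM. HLA-B and HLA-C had 195 and 111 CPM, counts that depend on how reads were assigned among these polymorphic genes. All 14 class I genes were expressed, against 61.9% of protein-coding genes. PSMB9, a subunit of the immunoproteasome, and the regulator NLRC5 were at 8.54 and 8.66 CPM. Only HLA-DMA of the 9 class II genes was expressed (1.69 CPM), and the regulator CIITA had 0.0464 CPM. Among checkpoint ligands 6 of 9 were expressed (66.7%, against 61.9%). PVRL2 (NECTIN2) and PVR, ligands of TIGIT, had 261 and 174 CPM, CD47 had 145 CPM and CD276 (B7-H3) 60.9 CPM. CD274, which encodes PD-L1, had 4.64, 5.96 and 5.09 CPM. Cytokines were fewer, with 9 of 27 expressed (33.3%, against 47.4% of all genes and 61.9% of protein-coding genes). CXCL2 had 62.1 CPM, SPP1 (osteopontin) 26.4 CPM and LIF 24.6 CPM, whereas IL6, CXCL8 and TNF had 0.0226 to 0.0584 CPM.

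Of the surface targets of antibody-drug conjugates 10 of 19 were expressed, a share of 52.6% between those of all genes (47.4%) and protein-coding genes (61.9%). MET (218 CPM), SLC39A6 (98.1), EGFR (79.7), CD276 (60.9), ERBB2 (54.2) and PTK7 (24.4 CPM) had the most reads. NECTIN4 had 0.166 CPM and FOLR1 0.0659 CPM.

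The cancer-testis antigen MAGEA4 on the X chromosome had 931, 958 and 940 CPM (532 ± 7.54 RPKM, SD, n = 3), rank 47 of all genes per length. PRAME had 273, 273 and 296 CPM. MAGEA12, MAGEA3, MAGEA1 and MAGEA6 had 77.3 to 122 CPM. These genes belong to the same family, in which MAGEA3 and MAGEA6 are near-identical copies, and reads may have been divided among family members. MAGEA10 had 73.9 CPM and GAGE1 37.0 CPM. Of the 19 antigens 8 were expressed (42.1%, against 47.4% of all genes and 61.9% of protein-coding genes). CTAG1B, CTAG2 and SSX2 had 0 counts. The limit given above for genes with close copies holds for 0 counts of such antigens, and so for this share. LIN28B, an oncofetal RNA-binding protein, had 169, 224 and 180 CPM, and of the other genes used as stem cell markers ITGA6 had 783 CPM, CD44 648, KLF4 23.0, SOX2 1.70 and ALDH1A3 0.821 CPM. Of that list 5 of 11 were expressed (45.5%, against 47.4% of all genes and 61.9% of protein-coding genes). Among HOX genes, which record position along the body axis, 25 of 39 were expressed (64.1%, near the 61.9% of protein-coding genes). HOXB2, HOXB7 and HOXB4 had the most reads, 74.4, 70.9 and 70.1 CPM, HOXC8 had 49.3 and HOXB9 45.8 CPM, and no HOXA or HOXD gene had a mean above 22 CPM.

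Of the long non-coding RNAs listed, 4 widely expressed transcripts had the most reads. MALAT1 had 329, 461 and 476 CPM, LINC00657 (NORAD) 300, 376 and 338, TUG1 285, 307 and 324, and NEAT1 253, 289 and 307 CPM. All 4 were lowest in mock. GAS5 had 105 CPM and SNHG1 88.0 CPM, H19 had 0 counts and HOTAIR 0.158 CPM. Of the list 13 of 19 were expressed (68.4%, against 14.3% of all long non-coding genes). The list was drawn up from well-known names, so the comparison describes that choice. Ribosomal proteins held 3.25% of all counts, and 75 of 78 were expressed (96.2%, against 61.9% of protein-coding genes). RPS6 had 1876, 1879 and 1864 CPM. RPL7 and RPS27 were named above, RPS10 (1.08 CPM) also missed the rule because SCR#2 lay below 1 CPM, and RPL21 (6.49 RPKM) and RPS3A (12.1 RPKM) were also far below the list's median of 192 RPKM.

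The 3 controls resembled each other closely. For the 9677 expressed genes with a mean of at least 10 CPM the median coefficient of variation was 7.10%, against 3.56% from counting alone. In 79.7% of these genes the highest library was less than 1.25 times the lowest, and in 5 genes it was at least 2 times. Mock differed most from the others. At this level 133 genes were at least 1.5-fold apart between mock and SCR#2 and 109 between mock and SCR#3, but 6 between SCR#2 and SCR#3. Mock lay at least 1.5-fold above both others in 48 genes and below both in 6. With 1 mock library, a difference of the mock condition and a difference of this library cannot be told apart, and no test was made.

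The difference between mock and the siRNA controls moved with base composition. Genes were divided into 5 equal bins. In the bin with the lowest GC content of the transcript (30.2 to 40.5%), mock minus the mean of SCR#2 and SCR#3 had a median of -0.19 in log2 CPM. In the bin with the highest (57.6 to 73.5%) it was 0.25, and the bins between lay in order (-0.12, -0.04 and 0.08). The median of SCR#2 minus SCR#3 stayed within 0.011 of 0 in all 5 bins. The 48 genes higher in mock had a median GC content of 65.3%, against 47.5% for all genes at this level. The part of GC content in these differences was not tested. Among genes described above, ALDOA, ENO1, SLC16A3 and TGFB1 were highest in mock and had 58.9 to 63.5% GC, and MALAT1, ITGB1 and B2M were lowest in mock and had 39.4 to 40.3% GC. The pattern did not cover all: PGK1 was highest in mock at 43.3% GC and ITGA5 lowest in mock at 58.7% GC.

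Among expressed genes with a mean of at least 10 CPM, the 10 with the largest ratio of highest to lowest library were WDR90, ITGB3, PFKFB4, NDUFS7, C9orf16, RPUSD1, IFIT1, PKMYT1, MIF and NUBP2, at ratios of 1.84 to 2.16. Mock was highest in 8 of them. PFKFB4, a regulator of glycolysis that responds to low oxygen, had 35.9, 17.6 and 19.1 CPM. MIF, a cytokine, had 58.4, 32.8 and 31.7 CPM and PKMYT1, an inhibitory kinase of CDK1, 29.9, 16.8 and 15.9 CPM. ITGB3, the integrin beta 3 chain, was lowest in mock (18.9, 39.4 and 31.8 CPM). IFIT1, an interferon-induced gene, was also lowest in mock (10.6, 15.1 and 20.1 CPM). These 2 had transcripts of 52.3% and 42.2% GC, and the other 8 had 56.8 to 68.2%.

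**Figure D5:**
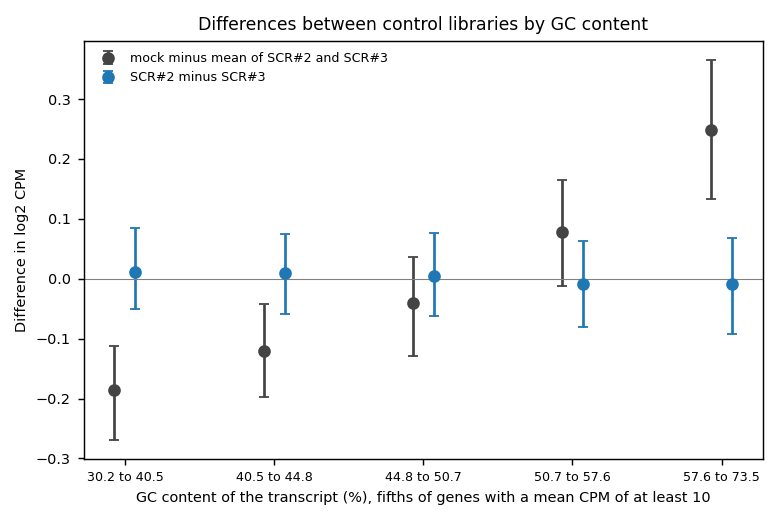
Difference in log2 CPM (vertical axis) by 5 bins of transcript GC content (horizontal axis, percent) for expressed genes with a mean of at least 10 CPM; points are medians and bars the interquartile range. Mock minus the siRNA controls goes from -0.19 to 0.25, while SCR#2 minus SCR#3 stays near 0.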

How the data were processed

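The authors deposited 1 table of gene counts for the series, whole-number reads per gene, and its 3 control columns were used. Tools listed in the submitters' processing notes are STAR 2.5.4b and Subread 1.5.1, after bcl2fastq 2.17, with the build hg38. Which annotation was counted, whether by strand, and what became of multi-mapped reads is not given in the sources used here. The kit keeps the strand, per the labels. Spreadsheet conversion had altered 51 gene symbols, and 50 were restored from the gene ID. CPM was computed on library totals, and RPKM on the longest GENCODE 29 transcript (coding where any). Lengths were matched for 12413 expressed genes (99.0%). No test was made, since no groups were compared. Factors from edgeR 4.0.16 (TMM) and DESeq2 1.42.0 (RLE) served as alternatives. The computation was tested on simulated counts. Ratio per length means and SDs are over the 3 per-library ratios.

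The genes and the 40 gene lists were chosen with earlier results of these data known. Named genes are the 20 highest by CPM and 15 highest per length, up to 6 members of each list with its defining absent members, the 10 most variable genes from 10 CPM, 3 genes on each side of the threshold, and CIP2A. Further list members were named by role. Intervals and floors cover counting error only. An expressed gene is one with at least 1 CPM in all 3 libraries. Some list members are not reported here.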

Additional observations from a re-analysis of the deposited data

How the results depend on the processing

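TMM and RLE scaling changed no library's CPM by more than 1.27% and 0.984%. Shifts this small carry no whole-number count across 1 CPM here, so the number of 12541 expressed genes could not change. The count was 13321, 11816 and 10629 genes at 0.5, 2 and 5 CPM, 12860 with at least 2 of the 3 libraries, 18156 with no filter, and 12621 to 12666 with 1 library left out. Of 200 list counts under 5 alternatives, 192 stayed within 1.5 times. The exceptions were, at 5 CPM, luminal epithelium (3), HOX genes (16), leukocyte, endothelium, melanocyte and MHC class II genes (0 each), and, at 0.5 CPM, fibroblast (1) and MHC class II (2) genes. The 189 genes at least 1.5-fold apart among the controls became 6 without the mock and 109 and 133 without SCR#2 and SCR#3. A stricter CpG-rich definition (0.75 and 55% GC) gave lower shares, from the lowest to the highest class 10.6%, 27.5%, 48.8%, 61.2%, 66.1% and 62.3%. Counting any listed start, an alternative chosen after seeing the data, gave 20.2%, 45.1%, 73.4%, 87.8%, 92.1% and 90.6%. In both, the highest class again lay below the one before it. The median transcript length raised per-length levels by a median of 0.62 on the log2 scale and moved 158 of 222 named levels by over 1 SD. TPM values were 2.90 times the RPKM at the median, a change of scale. Classes by RPKM gave CpG-rich shares within the intervals of the classes by CPM. No named CPM level moved by over 1 SD under scaling, and leaving out 1 of 3 libraries cannot move a mean by that much. Genes under about 3 counts per library are limited by depth. No paired analysis was possible because no test was made.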
